A study of Mus musculus with 5 samples.

Results

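IgA plasma cells of the bone marrow were set against IgA plasma cells of the spleen taken through the same sort gate, 553 cells against 214. The members were chosen by their immunoglobulin transcripts: a cell counted as IgA when it held at least 10 UMIs (unique molecular identifiers, 1 per captured RNA molecule) summed over Ighm, Ighg1, Ighg2b, Ighg2c, Ighg3, Ighe and Igha, the genes of the heavy-chain constant regions, and at least 70% of them came from Igha. They made up 767 of the 1832 barcodes of the 2 libraries and of the 5476 of the whole series. The series profiled single plasma cells of unimmunized male C57Bl6/N mice aged 8 to 12 weeks by 10x Genomics 3' sequencing, version 2. Each library pooled the CD138-high, Ly6g-, CD11c- cells of 3 mice after a double sort, so animals cannot be told apart within a library. Bone marrow B220-2NBDG+ and spleen B220-2NBDG+ were 1 library each, and each of the other splenic gates, namely B220-2NBDG-, then B220+2NBDG+ and then B220+2NBDG-, was also 1 library. B220 is a form of the surface protein CD45 that most plasma cells lose, and 2NBDG is a fluorescent glucose analog that marks cells taking up glucose. With 1 library a side there was no replicate error and no test. Each ratio below is given with an exact 95% interval that covers counting error only, and neither mice nor libraries were replicated.

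IgA is the antibody class of mucosal surfaces, where it is secreted as a dimer joined by the J chain. Plasma cells that make it arise mainly in gut-associated lymphoid tissue, and a share of them settle in the bone marrow, where stromal niches are known to keep plasma cells alive for long periods. Homing to mucosal tissue is known to run through the chemokine receptors CCR9 and CCR10 and the integrin subunits encoded by Itga4 and Itgb7.

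IgA cells took a larger share of the bone marrow library. They were 553 of 938 barcodes (59.0%, 95% Clopper-Pearson interval 55.7% to 62.1%) in bone marrow, against 214 of 894 (23.9%, 21.2% to 26.9%) in spleen B220-2NBDG+. In the other splenic gates they were 135 of 1296 B220-2NBDG- barcodes, 97 of 1126 B220+2NBDG+ barcodes and 77 of 1222 B220+2NBDG- barcodes. The call left little room near its border: the lowest Igha share of a member was 72.7% in bone marrow and 77.2% in spleen B220-2NBDG+, and the highest share outside was 57.0% in bone marrow and 67.01% in spleen. No barcode of these 2 libraries fell below 10 heavy-chain UMIs, and no barcode sequence occurred in both.

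The IgA cells of bone marrow were read somewhat more deeply. The median was 15091 UMIs and 1506 genes per cell in bone marrow, against 10570.5 UMIs and 1373 genes in spleen. Immunoglobulin genes took 62.7% of all UMIs in bone marrow IgA cells and 56.9% in splenic ones, so levels are given as CPM, counts scaled to the UMIs outside immunoglobulin genes, out of 3095572 such UMIs in bone marrow and 987797 in spleen. The transcripts of other isotypes were used to gauge free RNA in the droplets, although droplets with more than 1 cell can add to them. The isotype call limits this gauge, because barcodes with a large share of heavy-chain UMIs from another isotype were left out of each group. The percentages that follow can therefore be too low. Igha per non-immunoglobulin UMI reached 4.70% of its IgA-cell level in bone marrow IgM cells and 1.30% in splenic IgM cells, and Ighm in IgA cells reached 2.40% of its IgM-cell level in bone marrow and 1.84% in spleen.

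The cells carried plasma cell transcripts, as labelled. All 10 plasma cell markers were detected in both libraries, led by Jchain (listed as Igj), which encodes the J chain and alone took 37.5% of non-immunoglobulin UMIs in bone marrow IgA cells and 36.8% in splenic ones. The B cell list summed to 4207 CPM in bone marrow and 4371 CPM in spleen, led by Cd79a, while its members Pax5, Cd22 and Fcer2a were at 0 in both. Macrophage and monocyte markers summed to 5.17 CPM in bone marrow and 4.05 CPM in spleen, neutrophil markers to 2.26 CPM in bone marrow and 1.01 CPM in spleen, and erythroid markers to 4.20 CPM in bone marrow and 3.04 CPM in spleen. The eosinophil list summed to 1466 CPM in bone marrow and 1097 CPM in spleen, all of it Prg2, the gene of a granule protein, while Epx, Siglecf, Ear1 and Ear2 were at 0. Mean mitochondrial shares were 3.16% of non-immunoglobulin UMIs in bone marrow and 3.18% in spleen.

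Gene by gene the IgA cells of both organs had similar levels, apart from a short list that held the metallothioneins and Hmox1. A gene was tested when its level reached 25 CPM, from no fewer than 50 UMIs, in whichever library was higher. It counted as higher or lower at a ratio of 2, with counts under 3 UMIs raised to 3. Of 2343 genes tested, 44 were higher in bone marrow (1.88% of those tested) and 18 were lower (0.768%), and 2146 (91.59%) lay within 1.5-fold. The median log2 ratio was 0.00 and the quartiles were -0.19 and 0.16. Since 50 UMIs stand for 16.15 CPM in bone marrow but 50.62 CPM in spleen, a gene low in bone marrow had to reach a higher level to be tested. Scaling to all UMIs, immunoglobulin genes included, shifted the median log2 ratio to -0.21 and turned the split to 19 higher and 26 lower.

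**Figure D1:**
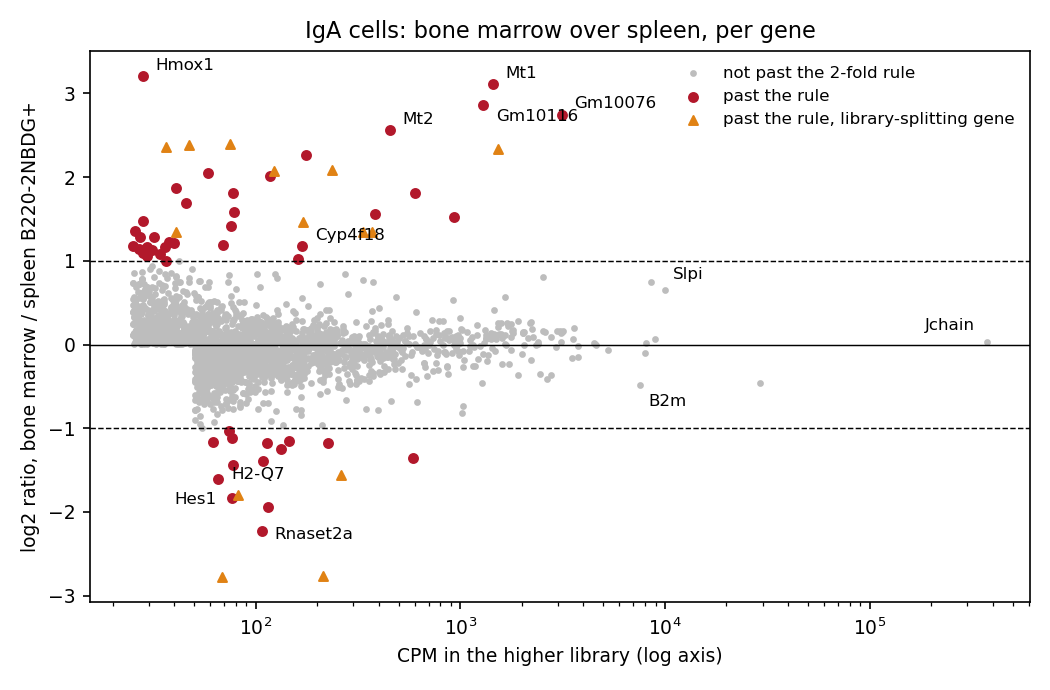
Each point is 1 of the 2343 genes tested in IgA cells, with its CPM in the higher library on the x axis (log scale) and the log2 ratio of bone marrow over spleen B220-2NBDG+ on the y axis. Dashed lines mark a 2-fold difference. Mt1, Mt2 and Hmox1 stand at log2 ratios of 3.11, 2.56 and 3.21, while Jchain lies at 0.03.

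Part of the 62 genes past the rule also split the libraries in other cells. In cells not called IgA, a group of genes was at least 2-fold apart between bone marrow, spleen B220-2NBDG- and spleen B220+2NBDG+ on one side and spleen B220-2NBDG+ and B220+2NBDG- on the other. This group held 16 of the 2343 genes tested. It supplied 10 of the 44 higher genes, among them Atp5l (ratio 4.26) and mt-Atp8 (2.53), and 4 of the 18 lower genes. That left 34 and 14. Of those, GENCODE lists 29 and 8 as protein-coding. A further set had near-identical copies or pseudogenes elsewhere in the genome, and its ratios were close in every isotype. Gm10076 had ratios of 6.72 in IgA cells, 7.10 in IgM cells and 7.32 in IgG cells, and Gm10116, which GENCODE names Ftl1-ps1, had 7.29, 7.25 and 6.72 in the same order. Reads shared by such copies may be left uncounted or assigned to the wrong copy, so these values are uncertain. So are those of the near-identical pair Rnaset2a (0.214) and Rnaset2b (0.260). In 26 of the 44 higher genes spleen B220-2NBDG+ was the lowest of the 5 IgA libraries, and 17 lay above all 4 splenic libraries. Of the 18 lower genes, 7 lay below all 4. Over all genes tested, 8.92% lay above all 4 splenic libraries and 32.69% lay below all 4. Those shares are over unselected genes, while the 62 were chosen by their ratio to spleen B220-2NBDG+. That choice by itself favours this gate being the lowest or highest, and favours bone marrow lying beyond the gates. The share of all genes tested with spleen B220-2NBDG+ lowest was not taken.

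A smaller set differed from every splenic gate. Mt1, Mt2, Tubg2, Cyp4f18 and Phf1 were at least 2-fold above each of the 4 splenic IgA libraries (0.213% of genes tested). Ola1, Nus1 and H2-Q7 were at least 2-fold below each (0.128%). Against spleen B220-2NBDG+, 43 of the 62 genes past the rule kept at least 2-fold under every alternative scaling, cell choice and thinning tried. Ola1, Tubg2, Cyp4f18 and Phf1 were among the 19 that did not. These counts take the ratio alone, without the filter on level and UMIs. With that filter, 17 of the 44 higher and 2 of the 18 lower genes still passed after thinning. Scaled to all UMIs, 19 of the 44 and all 18 passed. The splenic gates are not replicates. Outside the library split, 2.06% of genes tested passed the rule against spleen B220-2NBDG+, 18.84% against B220-2NBDG-, 4.02% against B220+2NBDG+ and 31.58% against B220+2NBDG-, at depths that differed between these libraries.

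Metallothioneins are small cysteine-rich proteins that bind zinc and copper, and their genes are known to be switched on by the zinc-sensing factor MTF-1 through short metal response elements. Mt1 (chromosome 8, 94179082 to 94180327, plus strand, GRCm38) and Mt2 (chromosome 8, 94172664 to 94173568, plus strand) lie next to each other. Their promoters are shown because both genes stood apart from all splenic gates. The sequences are RefSeq's for build GRCm38.p6, 5′ to 3′ on the plus strand, at chr8:94178839-94179138 for Mt1 and chr8:94172368-94172667 for Mt2. Each runs from 250 bases before to 50 after the start annotated for the window. Those starts differ from the starts of the GENCODE gene coordinates given above. Capitals mark each match to TGCNCNC on either strand, a looser form of the metal response element core TGCRCNC, where R is A or G.
Mt1: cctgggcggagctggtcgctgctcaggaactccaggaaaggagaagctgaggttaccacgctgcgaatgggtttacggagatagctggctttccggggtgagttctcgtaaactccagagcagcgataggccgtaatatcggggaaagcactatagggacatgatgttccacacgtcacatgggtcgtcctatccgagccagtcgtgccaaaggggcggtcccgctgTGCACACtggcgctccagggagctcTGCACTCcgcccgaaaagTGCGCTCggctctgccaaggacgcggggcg
Mt2: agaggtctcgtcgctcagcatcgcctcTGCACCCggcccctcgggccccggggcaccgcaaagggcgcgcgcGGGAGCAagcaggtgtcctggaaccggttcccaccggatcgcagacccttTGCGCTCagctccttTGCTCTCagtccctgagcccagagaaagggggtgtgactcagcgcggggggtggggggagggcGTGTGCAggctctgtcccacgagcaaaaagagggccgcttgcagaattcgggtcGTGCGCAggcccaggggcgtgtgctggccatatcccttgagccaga
The Mt1 window held 3 matches, all on the plus strand, and the Mt2 window 6, with 3 on each strand. At least 3 matches occurred in 7.10% of all 32851 mouse promoter windows of this length and at least 6 in 0.225%, while 51.0% held at least 1. The Mt2 matches TGCTCTC and GGGAGCA, the latter on the minus strand, have T where the stricter core has R. All counts and shares here are for the looser form, and the stricter core was not counted. A match is a description of the letters and not evidence of binding.

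Mt1 had 1443 CPM in bone marrow IgA cells, against 167 CPM in spleen B220-2NBDG+, 106 CPM in B220-2NBDG-, 61.5 CPM in B220+2NBDG+ and 68.7 CPM in B220+2NBDG- IgA cells. Bone marrow was the highest of the 5 libraries, and the matched splenic gate was the next. The ratio of bone marrow over spleen B220-2NBDG+ was 8.64 (7.39 to 10.15), from 4466 UMIs in bone marrow and 165 in spleen. Mt2 had 452.9 CPM in bone marrow IgA cells, against 76.9, 29.2, 22.5 and 22.1 CPM in the splenic gates in the same order, a ratio of 5.89 (4.67 to 7.52) over the matched gate. Both genes were also higher in bone marrow cells of the other isotypes, with ratios for Mt1 of 4.21 (3.94 to 4.49) in IgM cells and 3.21 (2.67 to 3.88) in IgG cells, and for Mt2 of 3.04 (2.76 to 3.35) in IgM cells and 2.68 (2.03 to 3.58) in IgG cells. The levels in IgM cells were higher in both organs, at 2078 CPM for Mt1 in bone marrow and 494 CPM in spleen. The intervals of IgA and IgM ratios did not overlap, but the difference between isotypes has no replicate and was not tested.

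The metallothionein transcripts were spread unevenly over the cells. After each cell was thinned to 1000 non-immunoglobulin UMIs, 250 of 553 bone marrow IgA cells (45.2%, 41.0% to 49.5%) held a UMI of Mt1 or Mt2, against 34 of 214 splenic ones (15.9%, 11.3% to 21.5%). The mean was 1.82 UMIs per cell in bone marrow and 0.266 in spleen, with a maximum of 32 in bone marrow and 6 in spleen. Cells with at least 5 such UMIs made up 10.5% of bone marrow IgA cells (8.06% to 13.3%) and 0.935% of splenic ones (0.113% to 3.33%). Without thinning, Mt1 was detected in 74.1% of bone marrow IgA cells and in 28.5% of splenic ones. These libraries hold no cell type that is known to lack metallothionein, so the share that free RNA adds was not measured for it.

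**Figure D2:**
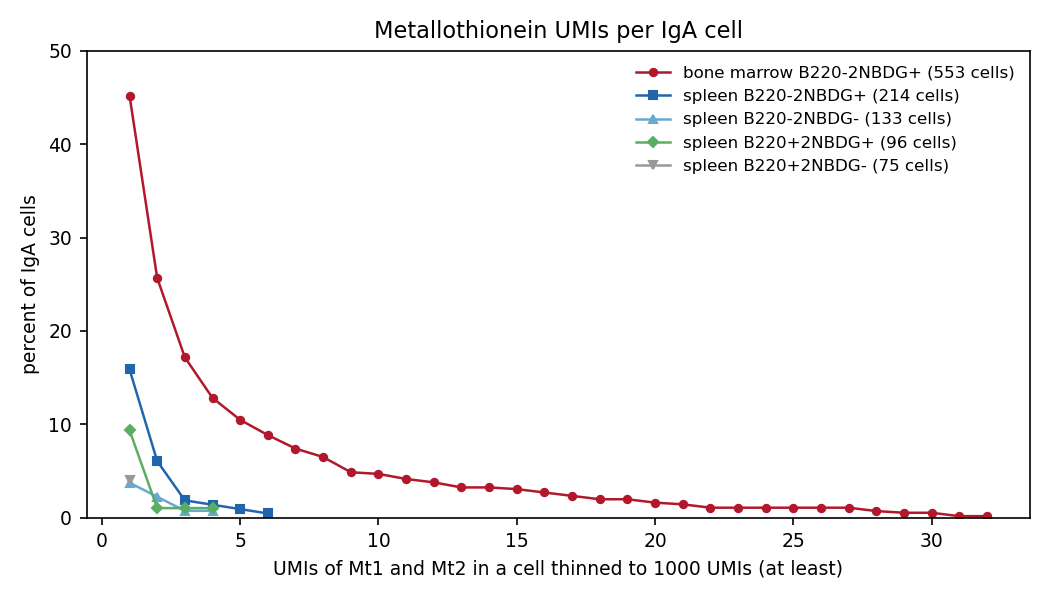
The y axis gives the percent of IgA cells that held at least the number of Mt1 and Mt2 UMIs on the x axis, after thinning to 1000 UMIs outside immunoglobulin genes, with 1 line for each of the 5 libraries. In bone marrow 45.2% of cells held at least 1 and the highest cell held 32, against 15.9% and 6 in spleen B220-2NBDG+.

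Heme oxygenase followed at a far lower level. Hmox1 (chromosome 8, 75093621 to 75100589), which encodes the inducible enzyme that breaks heme down to biliverdin and iron, had 28.1 CPM in bone marrow IgA cells, against 1.01 CPM in spleen B220-2NBDG+, 6.86 CPM in B220-2NBDG-, 14.3 CPM in B220+2NBDG+ and 7.36 CPM in B220+2NBDG-. The matched comparison rested on 87 UMIs in bone marrow against 1 in spleen, a ratio of 27.8 with a counting interval of 4.85 to 1109, or 9.25 (3.06 to 45.7) with the splenic count raised to 3. Bone marrow was again the highest library, but the splenic B220+2NBDG+ level was within 2-fold of it. The ratio was 3.03 (1.68 to 5.70) in IgM cells and 2.32 (1.05 to 5.64) in IgG cells. Thinned to 1000 UMIs, Hmox1 was found in 12 of 553 bone marrow IgA cells and 0 of 214 splenic ones. With the splenic count raised to 3, its thinned log2 ratio was 1.05, against 3.21 without thinning, and lay outside the counting interval.

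The rest of the metal and heme genes showed smaller ratios. Of 20 genes in that list, 10 were tested, 3 of them (Mt1, Mt2 and Hmox1) were higher and none lower, and the list's median log2 ratio was 0.13, beside 0.00 over all genes tested. Ftl1, the ferritin light chain that stores iron, had 8506 CPM in bone marrow IgA cells and 5064 CPM in splenic ones, a ratio of 1.68 (1.63 to 1.73) that stayed short of the rule, and its level lay above all 4 splenic gates (4768 to 5940 CPM). Reads shared by Ftl1 and its pseudogene Gm10116 may be left uncounted or assigned to the wrong copy, so the Ftl1 values are uncertain beyond their counting interval. Fth1, the ferritin heavy chain, was at 909 CPM in bone marrow and 858 CPM in spleen, a ratio of 1.06 (0.98 to 1.15). The biliverdin reductases Blvra and Blvrb had ratios of 1.06 and 1.02, and Slc30a5, which carries zinc into the secretory pathway, had 0.743.

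**Figure D3:**
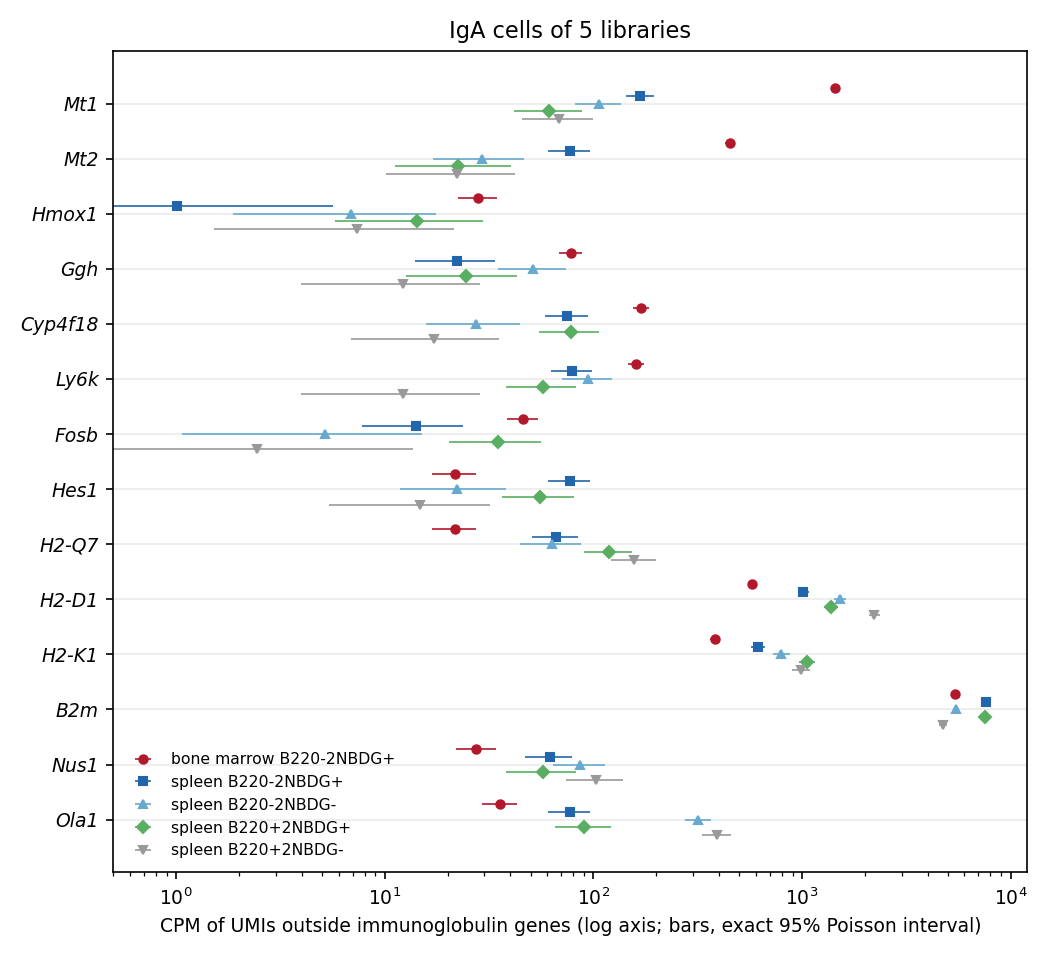
CPM of 14 genes in the IgA cells of each of the 5 libraries (log axis), with exact 95% Poisson intervals. The bone marrow point is the highest of the 5 for Mt1, Mt2, Hmox1, Ggh, Cyp4f18, Ly6k and Fosb and the lowest for H2-Q7, H2-D1, H2-K1, Nus1 and Ola1.

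Genes of other functions were also higher in bone marrow IgA cells. Ggh, a lysosomal enzyme that trims folate polyglutamates, had 77.8 CPM in bone marrow, against 22.3 CPM in spleen B220-2NBDG+ and 12.3 to 51.5 CPM over all splenic gates, a ratio of 3.496 (2.26 to 5.68). The same gene had a ratio of 6.21 in IgM cells, where its level was 1641 CPM in bone marrow and 264 CPM in spleen. In IgG cells the Ggh ratio was 0.907 (0.596 to 1.38). Free RNA of IgM cells can add to the Ggh level of IgA cells. Ighm in IgA cells reached 2.40% of its IgM-cell level in bone marrow and 1.84% in spleen. Both values are limited by the isotype call itself and can be too low. How much of the IgA level and ratio of Ggh comes from free RNA was not tested. Cyp4f18, a cytochrome P450 that inactivates leukotriene B4, had 169 CPM in bone marrow IgA cells, against 74.9 CPM in spleen B220-2NBDG+ and 17.2 to 77.9 CPM over the splenic gates. Its ratio was 2.25 (1.76 to 2.92) in IgA cells, 0.833 (0.699 to 0.992) in IgM cells and 1.54 (1.11 to 2.15) in IgG cells. The IgA ratio was 1.95 when scaled to all UMIs and 1.91 as a mean over cells. Fosb, a subunit of the AP-1 transcription factor, had 45.9 CPM in bone marrow and 14.2 CPM in spleen, a ratio of 3.24 (1.87 to 6.07). Of the 11 tested genes in the immediate early list, Fosb was the only member past the rule, and Fos had 1.35 and Jun 0.943.

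Several low genes had counts that leave wide intervals. Tubg2, a gamma tubulin, had 84 UMIs in bone marrow and 11 in spleen, a ratio of 2.44 (1.29 to 5.07) that came to 1.99 without cycling cells and 1.81 after thinning, and Phf1, a Polycomb-associated chromatin protein, had 113 in bone marrow and 18 in spleen, a ratio of 2.00 (1.21 to 3.502) at the border of the rule, which went down to 1.698 as a mean over cells. Btg3, an antiproliferative factor, had 75.9 CPM in bone marrow and 28.3 CPM in spleen, a ratio of 2.68 (1.81 to 4.12), while the other splenic gates held 63.8 to 71.7 CPM. Pgk1, a glycolytic enzyme, had 58.8 CPM in bone marrow, against 14.2 CPM in spleen B220-2NBDG+ and 71.7 to 178 CPM in the other gates, and Polr2l, a subunit of RNA polymerases, had 118 CPM in bone marrow, against 29.4 CPM in spleen B220-2NBDG+ and 134 to 143 CPM in the other gates. For these 3 genes the matched splenic library was the one far from the others, and the ratios in IgM cells were 1.63, 3.25 and 2.97.

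The Ly6 family, small proteins anchored to the outer membrane, had the highest median of the lists at a log2 ratio of 0.31 over 6 tested members. Ly6k was the only member past the rule, with 161 CPM in bone marrow and 79.0 CPM in spleen, a ratio of 2.03 (1.60 to 2.62) near the border of the rule. It fell short of the rule when scaled to all UMIs (1.76), as a mean over cells (1.76), with 90% from Igha (1.92), without predicted doublets (1.97), without the largest Igkv group (1.84) and after thinning (1.57). Ly6a, the antigen Sca-1, had 1656 CPM in bone marrow, against 1113 CPM in spleen B220-2NBDG+ and 360 to 871 CPM in the other gates, a ratio of 1.49 (1.39 to 1.59). Ly6c2 had the same ratio of 1.49 (1.32 to 1.68) with 488 CPM in bone marrow and 328 CPM in spleen, but 505 CPM in B220+2NBDG- cells. In IgM cells Ly6c2 had a ratio of 2.86 (2.73 to 2.99). Ly6d and Ly6e were at 0.855 and 0.914.

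Genes of MHC class I were mostly lower in bone marrow IgA cells, by less than 2-fold in all but H2-Q7. These molecules present peptides of the cell's own proteins to T cells, paired with beta-2 microglobulin. Of the list's 17 tested members H2-Q7 was the only one past the rule, 13 had a ratio below 1 and the median log2 ratio was -0.33, beside 0.00 over all genes tested. The median stayed negative under each scaling tried, between -0.53 and -0.20. The counting interval lay wholly below 1 for 9 of the 17, beside 13.23% of all genes tested, and wholly above 1 for none, beside 8.45%. In 11 of the 17 the bone marrow level was below all 4 splenic gates, which was so for 32.69% of all genes tested.

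H2-Q7 (chromosome 17, 35439155 to 35443773, GRCm38), which encodes the nonclassical molecule Qa-2, had 21.6 CPM in bone marrow IgA cells, against 65.8 CPM in spleen B220-2NBDG+, 63.5 CPM in B220-2NBDG-, 119 CPM in B220+2NBDG+ and 157 CPM in B220+2NBDG-. The ratio over the matched gate was 0.329 (0.230 to 0.470), from 67 UMIs in bone marrow and 65 in spleen. The classical gene H2-D1 had 576 CPM in bone marrow, against 1016 to 2224 CPM over the splenic gates, and a ratio of 0.566 (0.524 to 0.613). The other classical gene, H2-K1, had 383 CPM in bone marrow and 614 to 1057 CPM over the splenic gates, and a ratio of 0.623 (0.565 to 0.689). Both were the lowest in bone marrow. B2m, the beta-2 microglobulin gene, had 5415 CPM in bone marrow and 7595 CPM in spleen B220-2NBDG+, a ratio of 0.713 (0.694 to 0.733), but the other gates ranged down to 4719 CPM. MHC class I genes are close relatives, and reads can be shared between copies such as H2-Q7 and its neighbours. In IgM cells of the same libraries the list's median was 0.01, with H2-K1 at 0.940 (0.891 to 0.992) and B2m at 1.07 (1.06 to 1.09). After thinning, H2-Q7 was found in 8.53% of bone marrow IgM cells (5.60% to 12.3%) and 13.8% of splenic ones (11.1% to 17.0%). Without thinning these shares were 49.0% in bone marrow and 48.4% in spleen. In IgG cells H2-D1 had 0.564 (0.519 to 0.612). Of the peptide-loading members, Tap2, a peptide transporter, had 0.707 and Psmb9, an immunoproteasome subunit, 0.726, while Psmb8 and Tapbp were at 1.01 and 0.986.

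**Figure D4:**
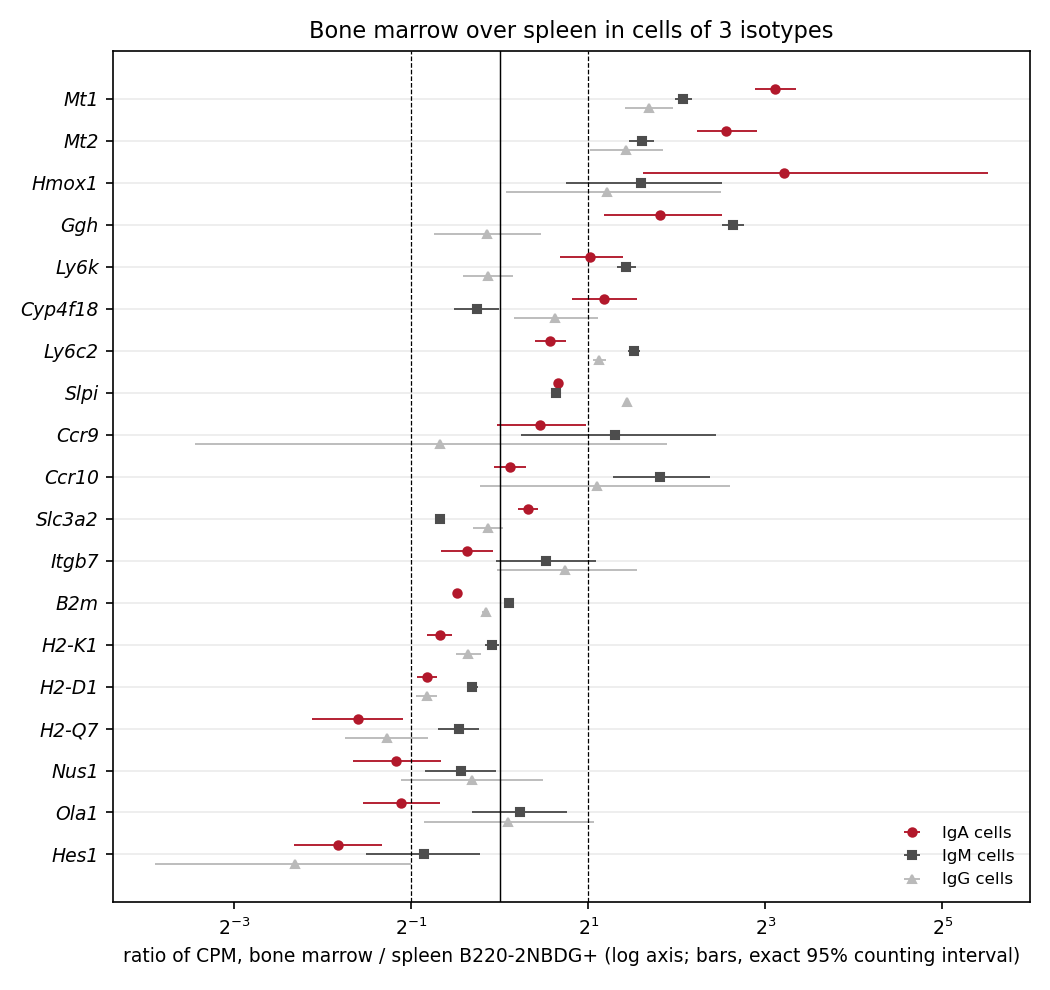
Ratios of CPM, bone marrow over spleen B220-2NBDG+, with exact 95% counting intervals for 19 genes in IgA, IgM and IgG cells of the same 2 libraries (log axis, dashed lines at 2-fold). Mt1 has ratios of 8.64, 4.21 and 3.21 in the 3 isotypes, and Ccr10 has 1.08, 3.51 and 2.15.

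Single genes of other functions were also lower. Hes1, a repressor switched on by Notch signalling, had 21.6 CPM in bone marrow and 76.9 CPM in spleen B220-2NBDG+, a ratio of 0.281 (0.200 to 0.396). Its splenic levels reached down to 14.7 CPM in B220+2NBDG- cells, so that bone marrow lay inside the splenic range. Nus1, a subunit of the enzyme that makes the dolichol backbone for N-glycosylation, had 27.5 CPM in bone marrow and 57.4 to 103 CPM over the splenic gates, with a ratio of 0.445 (0.316 to 0.628). Ola1, an ATPase of the Obg family, had 35.5 CPM in bone marrow and 76.9 to 390 CPM in spleen, with a ratio of 0.462 (0.342 to 0.627) in IgA cells and 1.17 (0.807 to 1.69) in IgM cells. The IgA ratio was 0.504 with TMM factors and 0.806 after thinning, both short of the rule.

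Homing receptors differed less between organs in IgA cells than the 2-fold rule asks. Of 26 genes in the list, 10 were tested and none passed, beside 1.88% higher and 0.768% lower over all genes tested. The list's median log2 ratio was -0.28. Ccr10 had 357 CPM in bone marrow IgA cells, against 330, 444, 465 and 255 CPM in the 4 splenic gates, and a ratio of 1.08 (0.96 to 1.23). Bone marrow lay inside the splenic range. In IgM cells the levels were 57.8 CPM in bone marrow and 16.5 CPM in spleen, a ratio of 3.51 (2.42 to 5.17). Ccr9 had 59.8 CPM in bone marrow IgA cells, against 43.5, 34.3, 8.20 and 41.7 CPM in the splenic gates, and a ratio of 1.37 (0.98 to 1.96) whose interval includes 1.

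Detection of these receptors per cell gave the same order as the levels. Thinned to 1000 UMIs, Ccr10 was found in 28.03% of bone marrow IgA cells (24.3% to 32.0%) and 21.96% of splenic ones (16.6% to 28.1%), and Ccr9 in 5.24% of bone marrow IgA cells (3.54% to 7.45%) and 3.27% of splenic ones (1.33% to 6.62%). In IgM cells thinned alike, Ccr10 was found in 5.12% in bone marrow and 1.62% in spleen, and Ccr9 in 2.05% in bone marrow and 0.718% in spleen. Without thinning, Ccr9 and Ccr10 were both found in 90 of 553 bone marrow cells and in 25 of 214 splenic ones. The integrin genes were somewhat lower in bone marrow, Itgb7 with 105 CPM against 137 CPM in spleen, a ratio of 0.771 (0.629 to 0.949), and Itga4 with 50.1 CPM against 76.9 CPM in spleen, a ratio of 0.651 (0.491 to 0.868). Cxcr4, the receptor of the marrow chemokine CXCL12, was too low to test, with 6 UMIs in bone marrow and 3 in spleen, and Cxcr3 had 7 in bone marrow and 4 in spleen.

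No tested gene of plasma cell identity, survival or protein folding passed the 2-fold rule, but several lay below 1 with their whole interval. None of 20 tested identity genes and none of 10 tested survival genes passed the rule, with median log2 ratios of -0.20 and -0.03. Over all genes tested only 1.88% were higher and 0.768% lower, so lists of this size can hold none without standing apart. Sdc1, which encodes the sorted protein CD138, had 587 CPM in bone marrow and 548 CPM in spleen, a ratio of 1.07 (0.97 to 1.18). Xbp1, the driver of the secretory program, had 0.892 (0.858 to 0.928), and Irf4 and Prdm1, factors that establish the plasma cell state, had 0.929 (0.7 to 1.25) and 0.669 (0.491 to 0.921). Tnfrsf17, the BCMA receptor on which marrow plasma cells are known to depend, had 487 CPM in bone marrow and 452 CPM in spleen, a ratio of 1.08 (0.97 to 1.2). Of the anti-apoptotic genes, Mcl1 was at 1.22 (0.96 to 1.57) and Bcl2 was at 0.617 (0.475 to 0.806). Of the 32 tested genes for folding in the endoplasmic reticulum, 25 had a ratio below 1 and none passed, with a median log2 ratio of -0.14 and Hspa5, the main chaperone there, at 0.729 (0.682 to 0.780).

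Slpi, a secreted inhibitor of leukocyte proteases, was among the most abundant transcripts, at 9999 CPM in bone marrow and 6347 CPM in spleen, a ratio of 1.58 (1.53 to 1.62), with 1034 CPM in B220-2NBDG- and 6837 CPM in B220+2NBDG+ IgA cells. Slc3a2, the heavy subunit of an amino acid transporter, had 993 CPM in bone marrow and 797 CPM in spleen, a ratio of 1.25 (1.15 to 1.35) in IgA cells, beside 0.625 (0.600 to 0.651) in IgM cells. The glucose transporter gene Slc2a1 and the hexokinase gene Hk2 were too low to test, with 17 and 8 UMIs in bone marrow and 3 and 7 in spleen. The 3 tested MHC class II genes did not pass the rule, with Cd74, the invariant chain, at 0.935 (0.912 to 0.96) and H2-Ab1 at 0.814 (0.728 to 0.911). Malat1, a nuclear RNA, had 21311.7 CPM in bone marrow and 29216.5 CPM in spleen, a ratio of 0.729 (0.719 to 0.740), in a list of heat shock genes and nuclear RNAs whose median log2 ratio was -0.36 over 9 tested genes with none past the rule. How far nuclear RNA or sort stress moves with the other values was not tested.

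Anxa2, Klf2 and Vim were low in IgA cells of both B220-2NBDG+ libraries and higher in the other splenic gates. Anxa2, a calcium-dependent membrane protein, had 1.94 CPM in bone marrow and 2.02 CPM in spleen B220-2NBDG+ IgA cells, but 638 CPM in B220-2NBDG-, 109 CPM in B220+2NBDG+ and 1089 CPM in B220+2NBDG- cells. Vim, an intermediate filament, had 8.40 CPM in bone marrow and 17.2 CPM in spleen B220-2NBDG+, beside 358, 67.6 and 738 CPM in the other gates in the same order. Klf2, a transcription factor of lymphocyte traffic, had 99.8 CPM in bone marrow and 120 CPM in spleen B220-2NBDG+, beside 796, 215 and 1391 CPM in the other gates. Mki67, a marker of dividing cells, was at 5.49 CPM in bone marrow and 4.05 CPM in spleen, and at up to 73.6 CPM in the B220+2NBDG- gate.

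Of the 27 gene lists, 19 had no called member among their 296 tested entries, and list medians lay between -0.43 and 0.31 on the log2 scale. Over all genes tested 1.88% were higher and 0.768% lower. Among the called members of the other 8 lists were Mt1, Mt2, Hmox1, H2-Q7, Ly6k, Fosb, Pgk1, mt-Atp8 and Ggh. The proteasome list (32 tested) and the nuclear oxidative phosphorylation list (53 tested) had medians of 0.00 and -0.06.

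**Figure D5:**
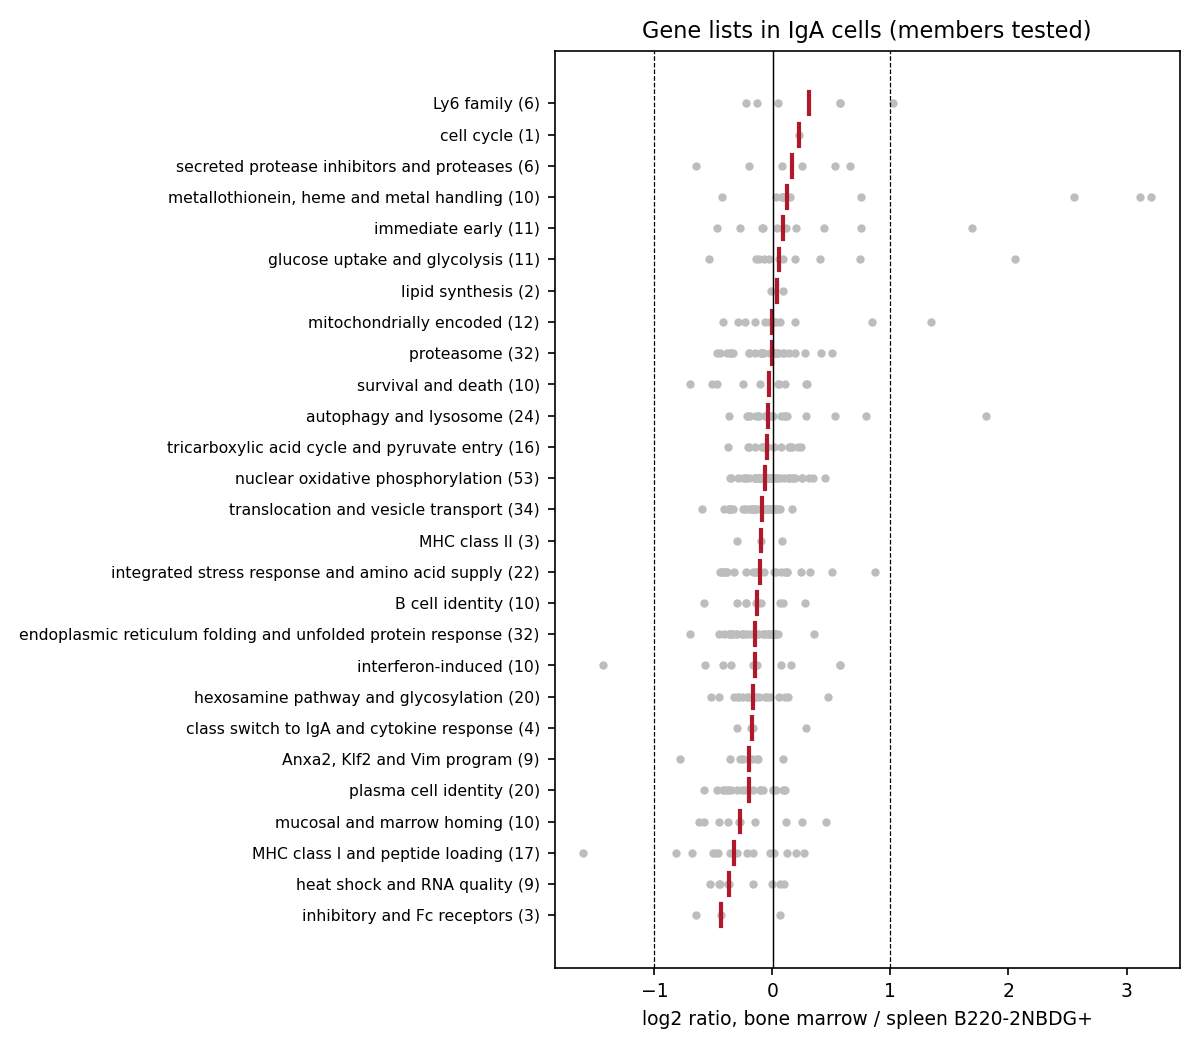
Log2 ratio of bone marrow over spleen B220-2NBDG+ in IgA cells for each tested member of the 27 gene lists (grey) with the list's median (red bar) and the number tested in parentheses. Dashed lines mark 2-fold. Medians run between -0.43 and 0.31, and single members past 2-fold stand out in the metal list, in MHC class I and in 6 others.

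Among the cells of each library, the genes with the widest spread were mostly shared. Ranked by variance over mean after thinning, Jchain came first in both, at 22.6 in bone marrow and 33.0 in spleen, and Slpi next at 8.11 in bone marrow and 14.3 in spleen. Mt1 held rank 3 in bone marrow at 8.03 and Mt2 rank 6 at 3.84, and neither was among the top 10 of the splenic cells. Mt1, Mt2, Ftl1 and Ly6k were in the top 10 of bone marrow cells alone, and Cd52, Hspa5, Cd74 and Ly6a in that of splenic cells alone. The median over the 967 genes ranked in bone marrow was 1.02, and over the 409 ranked in spleen it was 1.10. Slpi was found in 98.2% of bone marrow IgA cells and 85.0% of splenic ones at this depth, and Prg2 in 65.5% of bone marrow cells and 51.4% of splenic ones.

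Variable gene use could be read in unequal shares of the cells. A single kappa variable gene (Igkv) held at least 70% of 10 or more Igkv UMIs in 404 of 553 bone marrow IgA cells (73.1%) but in 62 of 214 splenic ones (29.0%), with median Igkv UMIs of 512 in bone marrow and 124 in spleen. This gap followed the library split described above: in IgA cells of the other gates the median was 401 in B220-2NBDG-, 499 in B220+2NBDG+ and 28 in B220+2NBDG-, and in cells not called IgA it was 554 in bone marrow, against 119.5 in spleen B220-2NBDG+, 566 in B220-2NBDG-, 492 in B220+2NBDG+ and 44 in B220+2NBDG-. How far that split sets the shares of cells read was not tested. Heavy-chain variable UMIs went the other way, with medians of 8 in bone marrow and 16 in spleen. Among the cells read, Igkv10-96 was used by 34 of 404 in bone marrow (8.42%, 5.90% to 11.6%) and 10 of 62 in spleen (16.1%, 8.01% to 27.7%), and Igkv12-44 by 25 of 404 in bone marrow (6.19%, 4.04% to 9%) and 11 of 62 in spleen (17.7%, 9.20% to 29.5%). Because the cells that could be read differ, no comparison of variable gene use was made.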

How the data were processed

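The deposited tables hold raw UMI counts per gene and barcode for 5 libraries, with 33456 genes each, made by the authors with Cell Ranger 2.1 on GRCm38, per the submitters' processing notes. For the annotation and the barcode filter, the sources used here give nothing. GENCODE M21 held 32739 of the identifiers and gave coordinates, biotypes and 266 immunoglobulin genes. All deposited barcodes were used.

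Counts were summed over the IgA cells of a library, scaled to UMIs outside immunoglobulin genes and compared as ratios with exact conditional binomial intervals (Python 3.11.15, scipy 1.17.1). The IgA cells of the other libraries and the IgM and IgG cells, called by the same rule, were treated likewise. The ratio calculation was tested on simulated counts. Scrublet (scanpy 1.11.5) marked 20 bone marrow and 14 splenic barcodes as doublets, 5 and 6 of them IgA cells, and they were kept. Thinning drew 1000 UMIs per cell without replacement with fixed seeds. Alternatives changed the scaling (including TMM factors of edgeR 4.0.16 in R 4.3.3), the calls, the filters and the cells used. A 3' library counts transcript ends, and whether counting used strand is not stated.

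The members, the 27 gene lists and the tests were chosen with earlier results of these data known. The text names the 15 highest and 15 lowest genes past the rule outside the library split where there were that many (14 lower), the called members of the lists, a fixed set of 32 genes, and the 10 genes of widest spread in each library, apart from genes that are not reported here. Tubg2, Cyp4f18, Phf1, Btg3, Rrp7a and the library-splitting examples were chosen after their values were seen. So were the list members that did not pass the rule and are outside the fixed set. The Iglc1, Iglc3 and Ighd genes were not used to call cells.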

Additional observations from a re-analysis of the deposited data

How the results depend on the processing

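Depth limits what could be called: the 987797 non-immunoglobulin UMIs of splenic IgA cells set the filter, and with 1 library a side no alternative supplies a replicate. The main counts were 44 genes higher and 18 lower in bone marrow IgA cells. Scaling to all UMIs gave 19 higher and 26 lower, and leaving Jchain out of the total gave 70 higher and 18 lower. No filter on low counts gave 296 and 787, a filter of 100 CPM gave 17 and 10, a fold of 1.5 gave 115 and 82, and a fold of 3 gave 18 and 7. Thinning each cell to 1000 UMIs left 728 genes to test, with 26 higher and 3 lower. TMM factors (49 and 16), median of ratios size factors (48 and 17), the mean over cells of CPM (39 and 17), 90% from Igha (42 and 20), 100 heavy-chain UMIs (44 and 18), and leaving out predicted doublets (43 and 19), cycling cells (44 and 17) or the largest Igkv group (42 and 18) kept both counts within 1.5 times. TMM and median of ratios factors moved the median log2 ratio of all genes by 0.13 and 0.10. Alternatives chosen after seeing the data were protein-coding genes outside the library split (29 and 8), that split alone left out (34 and 14), and each other splenic gate in place of B220-2NBDG+. The last gave 88 and 275 with B220-2NBDG-, 36 and 35 with B220+2NBDG+, and 146 and 403 with B220+2NBDG-. The cause was not tested. Of 990 log2 ratios recomputed for 90 genes, 17 changed sign: 1 in a gene past the rule, Rrp7a at -0.25 after thinning, and 16 in 10 genes that did not pass it, 5 of them when scaled to all UMIs, as for Ccr10 at -0.09. Apart from Rrp7a, 58 ratios moved beyond their counting interval and 931 stayed within it. The IgA share of cells was 57.14% in bone marrow and 23.49% in spleen with 90% from Igha, and the same as in the main call with 100 heavy-chain UMIs. No paired analysis was possible because each group was 1 library.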
